A study of Mus musculus with 12 samples.

Results

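The vascular cell adhesion molecules described here are 8 genes taken by name: the selectins Sele and Selp, the immunoglobulin superfamily receptors Icam1, Icam2 and Vcam1, and the endothelial junction molecules Pecam1, Cdh5 and Esam. A gene was included when the symbol in the expression tables equalled one of these names, without regard to its level. The names and the gene lists used below were chosen with earlier results of these data known. Counts set against the share of all genes therefore describe and do not test. The tables listed 14096 genes, among them 7 of the 8; Selp was not listed and is not analysed here.

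Poly-A RNA of kidney glomeruli, the capillary tufts that filter the blood, was sequenced in 12 samples in 4 groups of 3. All came from male eNOS-/- mice on the C57BL/6J background, which lack endothelial nitric oxide synthase in every cell, so that no group has an intact eNOS gene. Diabetic mice had received streptozotocin (STZ), a toxin of the insulin-producing beta cells, at 50 mg/kg on 5 consecutive days from 8 weeks of age, and nondiabetic mice had received citrate buffer. From 10 weeks after induction each group was gavaged daily for 8 weeks with 5% DMSO vehicle or with arctigenin (ATG), a plant lignan, at 40 mg/kg, and all mice were killed at 26 weeks of age. The comparisons ask how diabetes changes the transcripts of these molecules and whether ATG changes them in diabetic or in nondiabetic glomeruli.

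Endothelial cells capture leukocytes from the blood in steps. Selectins let the cells roll, ICAM-1, ICAM-2 and VCAM-1 hold them through leukocyte integrins, and PECAM-1, ESAM and VE-cadherin (the product of Cdh5) control the cell borders through which they leave. Sele, Icam1 and Vcam1 are inducible by cytokines such as TNF and IL-1 through NF-kB, whereas Icam2, Pecam1, Cdh5 and Esam are made constitutively by endothelium. In the kidney Vcam1 is also made by parietal epithelial cells and by injured tubule cells, and Icam1 by several cell types, so neither marks endothelium alone.

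Promoter sequences were taken from RefSeq for the mouse build GRCm38.p6, in a window of 250 bases before and 50 after the annotated start. The table held 3 of the 8 genes (Icam1, Sele and Selp). The Icam1 and Sele windows are shown because both genes rose in diabetes and both are textbook NF-kB targets. They lie at chr9:21015690-21015989 and chr1:164047984-164048283, both on the plus strand. Capitals mark matches to 3 motifs, none of which overlap. GGNNNTTCC is the core of many NF-kB sites. The AP-1 factors bind sites spelled TGANTCA. The third set of letters, TATAAA, is that of a TATA box. In the Icam1 window it lies 13 bases after the start the window was cut around, where a TATA box of that start would not be. The Icam1 start in the expression tables, chr9:21015960, is a different one and lies downstream of this TATAAA. In the Sele window TATAAA begins at base 202, ahead of the start.
Icam1: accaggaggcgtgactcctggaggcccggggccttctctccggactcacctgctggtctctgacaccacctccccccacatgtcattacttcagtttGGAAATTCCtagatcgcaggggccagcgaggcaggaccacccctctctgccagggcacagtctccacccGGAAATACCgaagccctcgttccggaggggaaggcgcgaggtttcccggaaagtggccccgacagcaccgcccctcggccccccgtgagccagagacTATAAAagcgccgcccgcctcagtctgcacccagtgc
Sele: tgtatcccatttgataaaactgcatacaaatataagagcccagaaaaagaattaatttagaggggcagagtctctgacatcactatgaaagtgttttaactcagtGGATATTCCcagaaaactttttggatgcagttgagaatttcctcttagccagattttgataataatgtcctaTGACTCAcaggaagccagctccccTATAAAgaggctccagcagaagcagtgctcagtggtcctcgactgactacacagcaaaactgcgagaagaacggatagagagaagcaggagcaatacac

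In the Icam1 window GGAAATTCC began at base 98 of the window, and GGAAATACC, which matches on the other strand, began at base 167. In the Sele window GGATATTCC began at base 106 and TGACTCA at base 178. Searched on both strands of 32851 mouse promoter windows of the same length, GGNNNTTCC was found in 18.5%, TGANTCA in 7.81% and TATAAA in 13.6%. The motifs were picked with these 2 sequences in view, and a match describes letters, not a site in use.

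The deposited values corresponded to about 23600000 to 29800000 reads per sample, and samples of one group correlated with each other at Pearson r 0.972 to 0.994 over all genes. Neither labels nor methods say that the 3 samples of a group came from separate mice, so p-values measure the spread between samples, which may be technical. In each diabetic group the sample titles share a stem and differ only in a final number. In the nondiabetic groups the titles do not all share a stem. No stem occurs in different groups, so whatever a stem stands for cannot be told apart from diabetes or ATG. Nos3, the disrupted gene (mm10 chr5:24364819-24384474, plus strand), was at log2 10.82 to 11.26 in the nondiabetic vehicle samples, 10.07 to 10.67 with ATG, 11.16 to 11.40 in the diabetic vehicle samples and 11.23 to 11.35 with ATG. There is no sample with an intact gene to set these values against, so they do not check the genotype. The labels' protocol also describes digestion to single cells and sorting by EYFP fluorescence, steps absent from the study's methods, and no label says whether a sample was a sorted fraction. Podocyte markers (mean log2 12.84 to 14.38 over 25 genes) and endothelial markers (11.13 to 12.58 over 30 genes) were both present in every sample. In RNA of mixed cells, fewer cells of a type and less RNA per cell cannot be told apart.

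Levels were compared between genes only as normalized reads per kilobase of transcript. Pecam1 was the most abundant of the 7 in each group, with 5001 ± 361 (SD, n = 3) in the nondiabetic vehicle samples and 7007 ± 292 in the diabetic vehicle samples. Cdh5, Esam and Icam2 followed, and the ranges of Cdh5 and Esam overlapped in all 4 groups. The 3 inducible genes lay lower: in the diabetic vehicle samples Icam1 was at 602 ± 93.4, Vcam1 at 227 ± 51.1 and Sele at 180 ± 43.3. Sele was last in each group and its range overlapped that of Vcam1 only in the diabetic vehicle samples, while Icam1 and Vcam1 overlapped only in the nondiabetic vehicle samples, where they stood at 360 ± 71.7 and 287 ± 126.

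**Figure D1:**
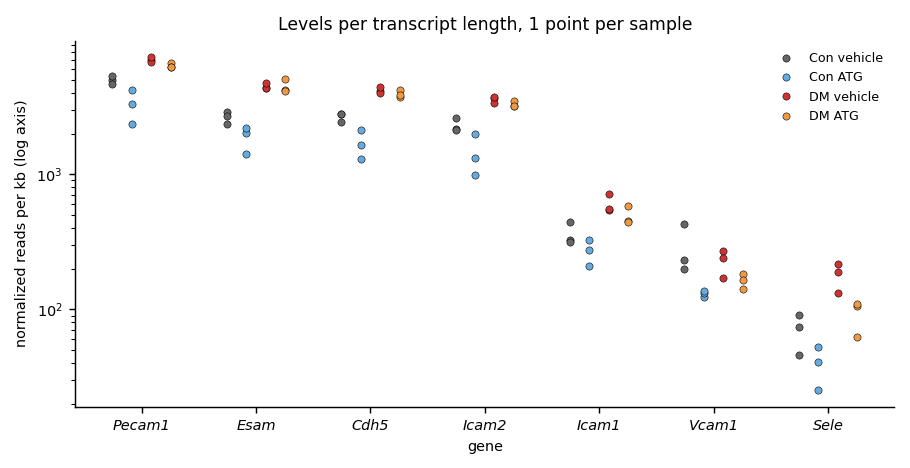
Normalized reads per kilobase of transcript (log axis) for the 7 listed genes, 1 point per sample, coloured by group (Con, nondiabetic; DM, diabetic). Pecam1 lies highest in all groups, and Sele lies lowest except that it meets the range of Vcam1 in the diabetic vehicle samples (133 to 218 against 171 to 271).

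Sele encodes E-selectin, which cytokine-stimulated endothelium displays for leukocytes to roll on (mm10 chr1:164048234-164057677, plus strand). Its log2 value was 7.75, 7.05 and 8.04 in the nondiabetic vehicle samples and 9.31, 8.60 and 9.11 in the diabetic vehicle samples. With ATG it was 8.28, 7.50 and 8.31 in the diabetic samples and 6.21, 7.25 and 6.89 in the nondiabetic samples. The diabetic vehicle samples lay above all 9 others, whereas the diabetic ATG samples overlapped the nondiabetic vehicle samples. These values rest on few reads, from 58 in 1 nondiabetic ATG sample to 552 in 2 diabetic vehicle samples.

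Icam1 encodes the ligand of the leukocyte integrins LFA-1 and Mac-1 (chr9:21015960-21028796, plus strand). Its log2 value was 9.68, 9.63 and 10.13 in the nondiabetic vehicle samples and 10.82, 10.44 and 10.45 in the diabetic vehicle samples. With ATG it was 10.53, 10.16 and 10.13 in the diabetic samples and 9.06, 9.69 and 9.45 in the nondiabetic samples. All 6 diabetic samples lay above the highest nondiabetic sample, though by only 0.00107 for the lowest of them, and within each disease state the ATG and vehicle ranges overlapped.

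Icam2 encodes a second LFA-1 ligand, made by resting endothelium and platelets (chr11:106377656-106382641, minus strand). It was at log2 11.27, 11.24 and 11.53 in the nondiabetic vehicle samples and at 12.02, 11.91 and 12.05 in the diabetic vehicle samples. With ATG the diabetic samples were at 11.83, 11.94 and 11.84 and the nondiabetic samples at 10.14, 10.57 and 11.15. The order was nondiabetic ATG, nondiabetic vehicle, then both diabetic groups, which overlapped each other.

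Vcam1 encodes the ligand of the integrin VLA-4 (chr3:116110020-116129688, minus strand). It was at log2 9.39, 9.62 and 10.52 in the nondiabetic vehicle samples and at 9.85, 9.67 and 9.18 in the diabetic vehicle samples. With ATG it was at 9.27, 8.92 and 9.14 in the diabetic samples and at 8.72, 8.82 and 8.87 in the nondiabetic samples. Vcam1 was the member for which diabetic and nondiabetic vehicle samples overlapped, and 1 nondiabetic vehicle sample lay 0.90 above the next. The nondiabetic ATG samples, within 0.15 of each other, lay below the other 9.

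Among the junction genes, Pecam1 (chr11:106654213-106715281, minus strand), which encodes the homophilic receptor CD31, was at log2 14.01, 13.91 and 14.12 in the nondiabetic vehicle samples and 14.49, 14.45 and 14.56 in the diabetic vehicle samples. With ATG it was at 14.44, 14.33 and 14.33 in the diabetic samples and 12.94, 13.41 and 13.75 in the nondiabetic samples. All 4 groups were separate: each diabetic ATG sample lay just below each diabetic vehicle sample, by as little as 0.0088 on the log2 scale. Pecam1 had 4 annotated transcripts and the other members 1 each, and the tables give 1 value per gene.

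Cdh5, whose product joins endothelial cells at adherens junctions (chr8:104101625-104144502, plus strand), was at log2 13.44, 13.24 and 13.44 in the nondiabetic vehicle samples and 13.99, 13.95 and 14.11 in the diabetic vehicle samples. With ATG it was at 14.02, 13.85 and 13.90 in the diabetic samples and 12.33, 12.68 and 13.05 in the nondiabetic samples. Esam, a tight junction receptor of endothelium and platelets (chr9:37528089-37538319, plus strand), was at 12.38, 12.09 and 12.29 in the nondiabetic and 12.98, 12.97 and 13.09 in the diabetic vehicle samples. Its ATG samples were at 13.18, 12.94 and 12.89 in diabetes and 11.36, 11.86 and 12.004 without it. For both genes the 6 diabetic samples lay above the 6 nondiabetic ones, and the 2 diabetic groups overlapped.

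**Figure D2:**
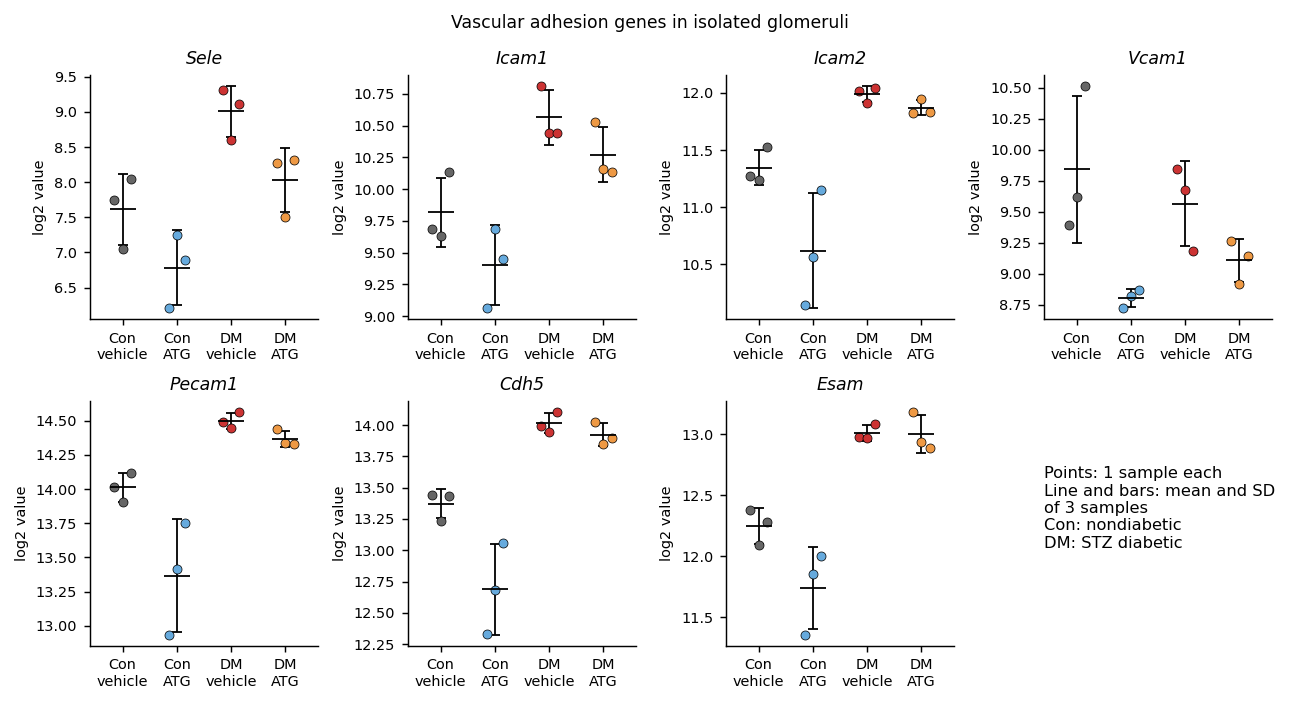
Log2 values of the 7 genes in each of the 4 groups (Con, nondiabetic; DM, diabetic), 1 point per sample with the mean and SD of 3 samples. Every gene but Vcam1 is higher in the diabetic than in the nondiabetic vehicle samples without overlap, and Sele shows the widest gap between diabetic vehicle (mean 9.01) and diabetic ATG (8.03).

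Diabetes, in vehicle-treated samples, went with more transcript of 5 of the 7 genes by limma with Benjamini-Hochberg adjustment over all 14096 genes. E-selectin rose the most, 2.63-fold, while the constitutive junction and LFA-1 ligand genes Esam, Cdh5 and Icam2 and the inducible Icam1 rose 1.56- to 1.69-fold. Vcam1 did not pass, and its interval runs from lower to slightly higher in diabetes. Of all genes 10.2% were called higher and 18.9% in either direction, and the members' median log2 difference was 0.64 against 0.00751 over all genes. For 6 of the 7 each diabetic sample lay above each nondiabetic one, against 23.0% of all genes (41.7% were separate in either direction). An exact permutation test of 3 against 3 samples cannot go below p = 0.1.

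By limma the log2 difference of Sele was 1.39 (SE 0.34, adjusted p = 0.0191). Icam1 rose by 0.75 (SE 0.19, adjusted p = 0.0214 by limma) and Icam2 by 0.64 (SE 0.19, adjusted p = 0.0403). Esam rose by 0.76 (SE 0.15, adjusted p = 0.00939 by limma), the lowest p among the members, and Cdh5 by 0.64 (SE 0.15, adjusted p = 0.0167). Pecam1 stood 0.49 higher (SE 0.16) at an adjusted p of 0.0582 by limma. Vcam1 stood 0.27 lower in the diabetic mean, with a 95% interval of the difference from -0.84 to 0.29 and an adjusted p of 0.472 by limma. Without the highest nondiabetic vehicle sample the Vcam1 difference turned to 0.06. Without nondiabetic vehicle sample 2, or without diabetic vehicle sample 1, Esam remained as the one call, where 5.68% and 7.12% of all genes were called, and without nondiabetic vehicle sample 1 Sele, Cdh5 and Esam did (8.95% of all genes). Esam was also the one call left when the title number entered the fit as a block, where 9.75% of all genes were called.

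ATG in diabetic samples gave no call for any member and none among all 14096 genes (0% called, lowest adjusted p = 0.248 by limma, 636 genes at an unadjusted p under 0.05). These values share the diabetic vehicle samples with the comparison above, so a high value there raises one difference and lowers the other. E-selectin had the largest difference, -0.98 on the log2 scale (SE 0.34), a ratio of 0.508, with a 95% interval from -1.72 to -0.24. Its unadjusted p was 0.0144 and its adjusted p 0.9997 by limma, and it ranked 186 of all genes by p. Vcam1 was at -0.46 (SE 0.25), Icam1 at -0.29 (SE 0.19), Pecam1 at -0.13, Icam2 at -0.12, Cdh5 at -0.091 and Esam at -0.0077. The groups did not overlap for Sele and Pecam1, 2 of the 7, both lower with ATG, against 6.32% of all genes (10.2% in either direction).

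ATG in nondiabetic samples went with less transcript of Vcam1, Cdh5 and Pecam1, which was 3 of the 7 against 4.51% of all genes called lower and 5.22% called either way by limma. Vcam1 fell by 1.04 on the log2 scale (SE 0.25, adjusted p = 0.0435 by limma), to 0.487 of the vehicle level, and with 1 sample left out the difference ran from -1.26 to -0.70, the latter without the vehicle sample that stood 0.90 above the next. Cdh5 fell by 0.68 (SE 0.15, adjusted p = 0.0312 by limma) and Pecam1 fell by 0.65 (SE 0.16, adjusted p = 0.0469). Not past the threshold were Sele at -0.83 (adjusted p = 0.134 by limma), Icam2 at -0.73 (adjusted p = 0.0527), Esam at -0.51 (adjusted p = 0.0682) and Icam1 at -0.42 (adjusted p = 0.163). ATG samples lay below all vehicle samples for 5 of the 7, against 20.0% of all genes (34.4% in either direction), and the median difference was -0.68 against -0.0388 over all genes. The 3 calls were all lost when any 1 of the 3 nondiabetic vehicle samples, or nondiabetic ATG sample 1 or 2, was left out, and without nondiabetic ATG sample 3 the calls were 5, where 25.0% of all genes were called. They were also lost without diabetic vehicle sample 1 or diabetic ATG sample 2 or 3, which enter through the shared estimate of the spread, and without diabetic ATG sample 1 only 1 was left. Over all genes the share called was 0.426% to 3.19% in these fits that lost calls. Among the 2 vehicle and 2 ATG nondiabetic samples whose titles begin with the same 3 digits, the differences were -1.22 for Vcam1, -0.47 for Cdh5 and -0.43 for Pecam1, with 0 members and 0.0568% of all genes called.

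Under ATG, diabetic samples exceeded nondiabetic samples for 6 of the 7 genes, against 25.9% of all genes called higher and 46.7% called either way by limma. Esam rose by 1.26 (SE 0.15, adjusted p = 0.000244 by limma), Icam2 by 1.25, Sele by 1.25, Cdh5 by 1.23, Pecam1 by 1.00 and Icam1 by 0.87. Vcam1 stood 0.31 higher, with an adjusted p of 0.344 by limma and a 95% interval from -0.26 to 0.87. All 7 were higher in each diabetic than in each nondiabetic ATG sample, as were 30.5% of all genes (56.1% were separate in either direction).

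The test of whether ATG acted differently in diabetic and nondiabetic samples called no member at an adjusted p under 0.05 by limma, where 0.546% of all genes were called and 1812 genes had an unadjusted p under 0.05. The difference between the ATG effects was 0.61 for Icam2, 0.59 for Cdh5 (SE 0.21, unadjusted p = 0.0176), 0.58 for Vcam1, 0.51 for Pecam1, 0.50 for Esam, 0.12 for Icam1 and -0.15 for Sele. Adjusted p-values by limma ran from 0.285 to 0.897. Without nondiabetic ATG sample 3, the one closest to vehicle for Icam2, Pecam1 and Cdh5, those 3 genes were called, as were 5.46% of all genes.

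**Figure D3:**
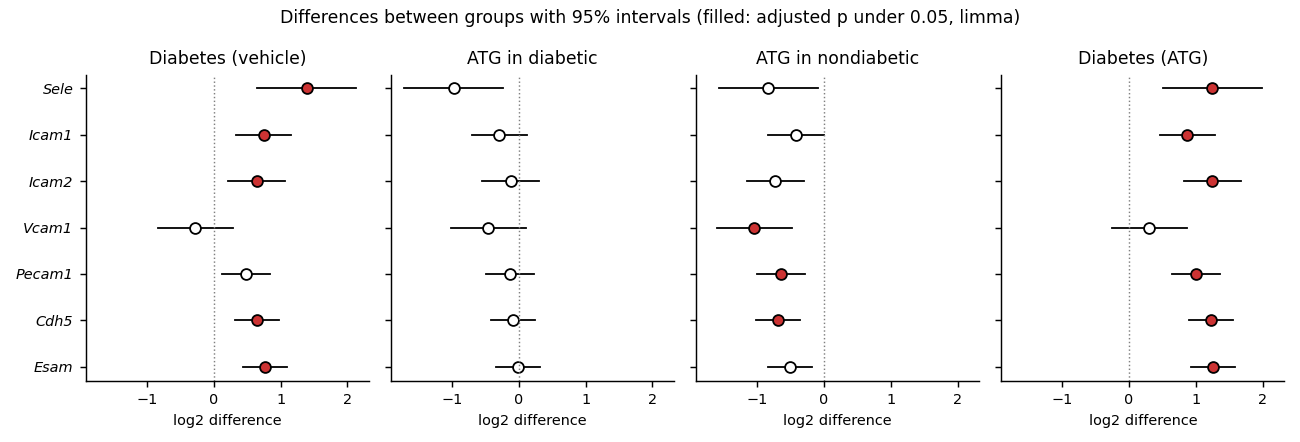
Log2 differences of the 7 genes in 4 comparisons with 95% intervals from the limma fit, filled where the adjusted p is under 0.05. In both diabetes panels all genes lie to the right of 0 except Vcam1 in vehicle-treated samples (-0.27), and in the panel of ATG in diabetic samples the interval of Sele alone (-1.72 to -0.24) leaves out 0.

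Cell type markers moved with these groups. Of 30 endothelial marker genes, none of them a member, 12 were called higher in diabetes (10.2% of all genes were) and 16 lower with ATG in nondiabetic samples (4.51%) by limma, and their mean log2 value was 12.16, 11.51, 12.47 and 12.55 in the nondiabetic vehicle, nondiabetic ATG, diabetic vehicle and diabetic ATG groups. Of 40 tubule markers, 24 were called lower in diabetes, against 8.63% of all genes, with group means of 12.44, 13.14, 11.09 and 11.40. With ATG in nondiabetic samples all 40 had higher means (median 0.77, none called). All 30 endothelial and all 18 mesangial and smooth muscle markers had lower means there. Of 18 mesangial and smooth muscle markers, 12 were called lower with ATG in nondiabetic samples, against 4.51% of all genes, with group means of 11.38, 10.49, 11.19 and 11.25, and their part in the results was not tested. All 25 podocyte markers had lower means with ATG in nondiabetic samples (median -0.57, 1 called), where their mean log2 value was 12.84, 13.25 and 13.90 against 13.80 to 13.93 with vehicle, so that sample 3 stood with the vehicle samples. The part of the podocyte markers in the results was not tested either. In diabetic against nondiabetic samples under ATG, where 25.9% of all genes were called higher and 20.8% lower, 28 of the 30 endothelial and 15 of the 18 mesangial markers were called higher and 37 of the 40 tubule markers lower. Of the 25 podocyte markers 6 were called higher, near the share of all genes. All 25 had higher means there, with a median of 0.62 against 0.0533 over all genes. Of 23 leukocyte markers listed of 30 named, 8 were called higher in diabetes, against 10.2% of all genes, and their group means were 8.45, 8.10, 8.90 and 8.52. Their summed normalized reads ran from 13955 to 20006 in the nondiabetic vehicle samples and from 19417 to 26928 in the diabetic vehicle samples, against 226928 to 246149 and 286532 to 320009 for the endothelial markers and 518949 to 629528 and 125693 to 339183 for the tubule markers. No listed marker was at 0 in any sample. The B and T cell markers Cd3d, Cd3e, Cd4, Cd8a, Cd79a, Cd79b and Ms4a1 were not listed, nor were 12 of 14 platelet markers. Of the 2 listed, Itga2b and Itgb3, 1 was called higher in diabetes, against 10.2% of all genes. Both were called higher in diabetes under ATG, against 25.9%. Their group means were 9.07, 9.01, 9.54 and 9.77, and their part in the results was not tested. Of 9 listed parietal epithelial markers, a cell type that makes Vcam1, 1 was called higher in diabetes, close to the 10.2% of all genes. None was called in either ATG comparison, where no gene was called in diabetic and 5.22% of all genes in nondiabetic samples. With the tubule or the leukocyte marker mean as a covariate no member was called in diabetes, and only 2.60% and 1.74% of all genes were. With the endothelial mean Cdh5 (adjusted p = 0.0338 by limma) and Esam (adjusted p = 0.0308) were called, and 6.45% of all genes. In diabetes under ATG no member was called with the tubule or the endothelial mean, where 0.809% and 0% of all genes were.

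**Figure D4:**
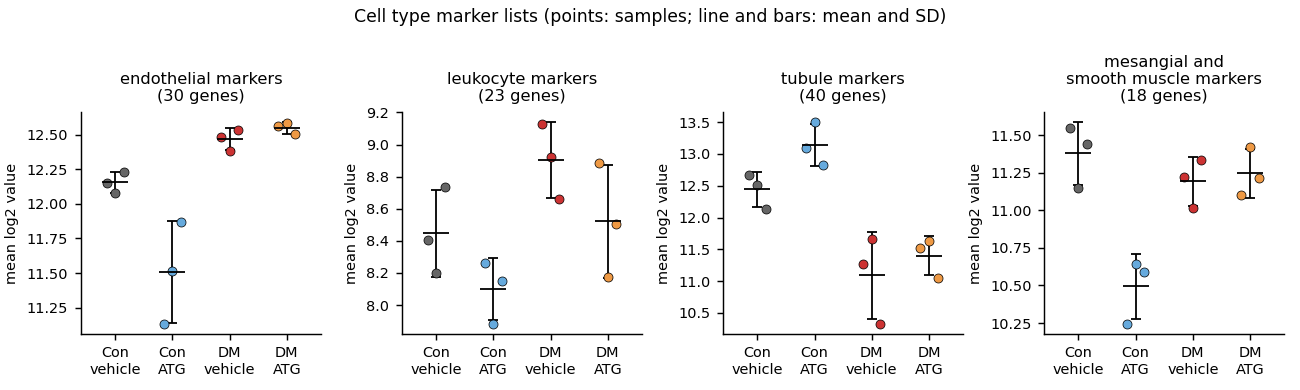
Mean log2 value of 4 marker lists in each group (Con, nondiabetic; DM, diabetic), 1 point per sample with the mean and SD of 3 samples. Endothelial markers are highest in both diabetic groups and lowest in the nondiabetic ATG samples (11.13 to 11.87), while tubule markers run the other way, from 10.33 in a diabetic vehicle sample to 13.50 in a nondiabetic ATG sample.

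Each value was also set against the endothelial marker mean of its own sample, a scale chosen after the data had been seen. On it Sele was at -4.40, -5.03 and -4.19 in the nondiabetic vehicle samples, -3.17, -3.78 and -3.43 in the diabetic vehicle samples and -4.28, -5.08 and -4.19 in the diabetic ATG samples. The diabetic vehicle samples stayed above the other groups and the diabetic ATG samples overlapped the nondiabetic vehicle samples. The diabetes difference of Sele was 1.08 (adjusted p = 0.0349 by limma) and that of Esam 0.45 (adjusted p = 0.0400), where 11.1% of all genes were called. Icam1 (0.44), Icam2 (0.33), Cdh5 (0.33) and Pecam1 (0.18) did not pass, at adjusted p-values by limma of 0.118, 0.0833, 0.0653 and 0.235. On this scale 6 of the 7 were above the nondiabetic range in diabetes, against 4.56% of all genes, whose own median difference was -0.305. The subtracted mean itself stood 0.31 higher in diabetes, which shifts all genes down alike. The 4.56% is therefore low by construction and no fair measure for the members.

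With ATG in diabetic samples the Sele difference relative to endothelial markers was -1.06, and Sele, Icam2, Pecam1 and Cdh5 were below the diabetic vehicle range, 4 of the 7 against 13.8% of all genes. The median difference of all genes was -0.0866 there, so this share too depends on the scale. No member and no gene passed the adjusted threshold there. With ATG in nondiabetic samples the members ranged from -0.39 (Vcam1) to 0.23 (Icam1) and none separated the groups, where 72.8% of all genes did, and the endothelial marker mean itself stood 0.65 lower on the log2 scale. That drop lifts all genes alike, to a median of 0.609, so the 72.8% is no fair measure for the members. For Cdh5 and Pecam1, called lower on the unscaled values, the difference between ATG and vehicle on this scale was -0.034 and 0.0030. Under ATG this scale moves all genes alike, to a median of -0.989 between diabetic and nondiabetic samples with 88.6% of genes called, so that a negative value there, such as -0.74 for Vcam1 (adjusted p = 0.0173 by limma), is not particular to the gene.

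**Figure D5:**
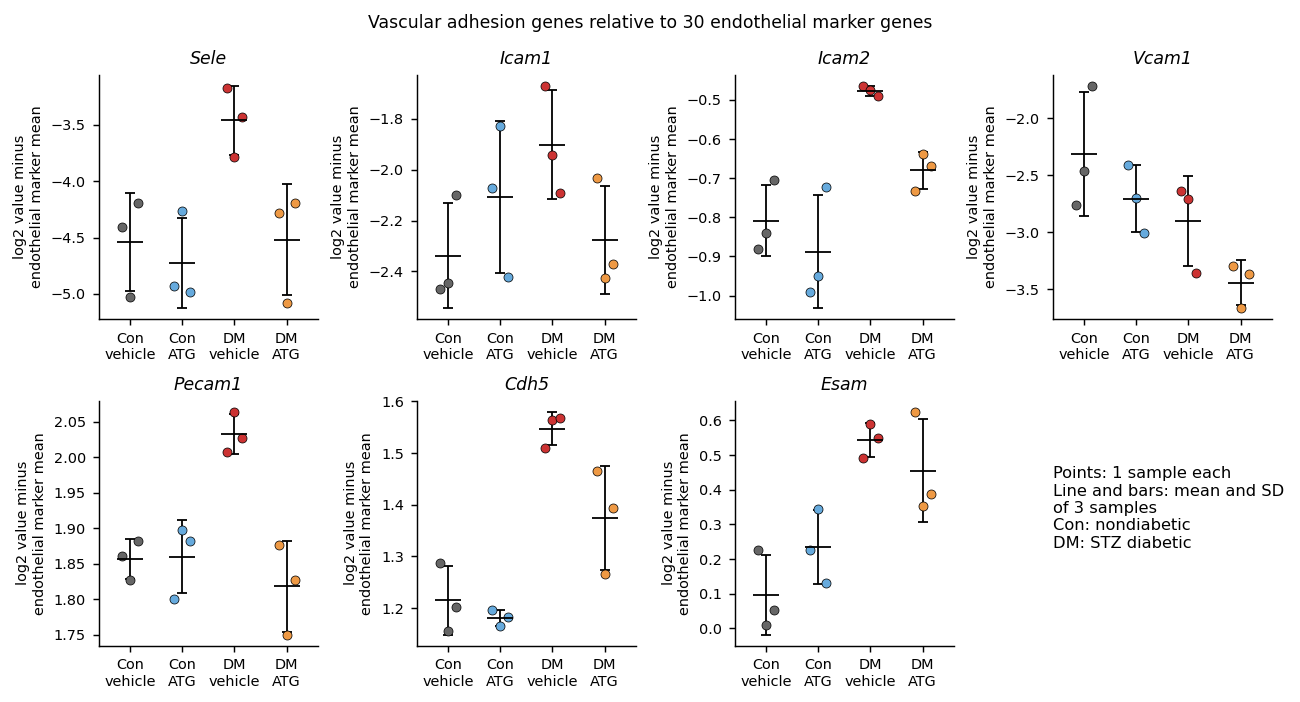
Log2 value of each gene minus the mean log2 value of 30 endothelial markers in the same sample (Con, nondiabetic; DM, diabetic), 1 point per sample with the mean and SD of 3 samples. Relative to the markers, Sele in diabetic vehicle samples (-3.78 to -3.17) lies above the 3 other groups, and the nondiabetic ATG samples overlap the nondiabetic vehicle samples for every gene.

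Over the 12 samples Pearson r among Icam2, Pecam1, Cdh5 and Esam ran from 0.955 (Icam2 with Esam) to 0.991 (Icam2 with Pecam1), and with group means taken out from 0.746 (Icam2 with Esam) to 0.975 (Pecam1 with Cdh5). Icam1 and Sele correlated at 0.938 and, within groups, at 0.773. Icam1 also correlated with those 4 genes at 0.891 to 0.916, and within groups at 0.456 to 0.606. Vcam1 correlated with the other members at 0.267 to 0.490, and within groups at 0.081 with Esam up to 0.686 with Icam1, the latter above its pooled 0.477. These r describe 12 samples that share groups, libraries and cell makeup, and no p is given.

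By rule the 2 genes with the highest r over the 12 samples were taken for each member. They were Pofut2 and Tie1 for Icam2 (0.994 and 0.992), Tie1, an endothelial receptor kinase, and Camk1 for Pecam1 (0.994 and 0.992), and Ece1, the endothelin-converting enzyme, and Msn for Cdh5 (0.998 and 0.996). For Esam they were the thrombin receptor gene F2r and Enho (0.994 and 0.991). Sele was nearest to Il1r1, the IL-1 receptor, and to Tnnt2, a troponin gene (0.965 and 0.962, within groups 0.821 and 0.796). Icam1 was nearest to the transcription factor gene Srf and to Flot1 (0.974 and 0.971, within groups 0.887 and 0.881). Vcam1 had the weakest likeness, to the prostaglandin synthase gene Ptgs2 and to Pik3ap1 (0.916 and 0.882, within groups 0.768 and 0.925).

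All 13 listed counter-receptor genes (integrin subunits and selectin ligands) had higher means in diabetic vehicle samples, with a median log2 difference of 0.59. By limma 8 were called higher, against 10.2% of all genes. In nondiabetic vehicle samples their summed normalized reads were 45888 to 47926, against 13955 to 20006 for the 23 leukocyte markers. Itga9 and Itga4 had mean log2 values of 11.06 and 10.65 there, Itgal and Itgb2 of 7.96 and 8.36. Which cells made these transcripts was not tested, so the counts do not measure leukocytes. Itgal and Itgb2, the subunits of the ICAM-binding integrin LFA-1, rose by 1.01 (SE 0.18, adjusted p = 0.00619 by limma) and 0.82 (SE 0.15, adjusted p = 0.00686), and Cd44 by 0.91 (SE 0.19, adjusted p = 0.0113). The VLA-4 subunit gene Itga4 was at 0.099 in diabetes (adjusted p = 0.657 by limma). With ATG in diabetic samples none of the 13 was called, nor was any other gene. Of the 13, 10 had lower means there and the median was -0.35. With ATG in nondiabetic samples 3 of the 13 were called lower, against 4.51% of all genes, among them Itga4 at -0.85 (adjusted p = 0.0119 by limma) and Spn, a leukocyte sialomucin, at -0.85 (adjusted p = 0.0136).

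Of 27 listed genes of the cytokine and NF-kB input (Tnf and Ifng were not listed), 8 were called higher and none lower in diabetes, against 10.2% of all genes called higher, with a median of 0.22. The NF-kB subunit genes Nfkb2 and Rela rose by 0.55 (SE 0.082, adjusted p = 0.00375 by limma) and 0.33 (SE 0.056, adjusted p = 0.00589), and the TNF receptor gene Tnfrsf1a by 0.33 (SE 0.066, adjusted p = 0.00936). None was called with ATG in diabetic samples, where no gene at all was called. With ATG in nondiabetic samples 3 of the 27 were called lower, against 4.51% of all genes, among them Tnfrsf1b at -0.68 (adjusted p = 0.0103 by limma) and Nfkb1 at -0.36 (adjusted p = 0.0308).

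Of 16 other endothelial capture and transmigration genes, 5 were called higher in diabetes, against 10.2% of all genes, and 4 lower with ATG in nondiabetic samples, against 4.51%. The poliovirus receptor gene Pvr (0.86, adjusted p = 0.00371 by limma), the sialomucin Cd34 (0.75, adjusted p = 0.0103) and Mcam (0.68, adjusted p = 0.0150), a junctional immunoglobulin receptor, led in diabetes, and with ATG in nondiabetic samples Mcam was at -0.94 and Jam3 at -0.59 (adjusted p = 0.0103 and 0.0165 by limma). Of 22 genes of the VE-cadherin complex and tight junctions, 4 were called higher and 3 lower in diabetes, where 18.9% of all genes were called either way. Rasip1, a Rap1 effector of endothelium, was at 0.64, the GTPase gene Rap1a at 0.47 and the armadillo protein gene Pkp4 at -0.67 (adjusted p = 0.00628, 0.00711 and 0.0104 by limma). With ATG in nondiabetic samples 2 of the 22 were called lower, against 4.51% of all genes. Of these Rasip1 fell by 0.63 (adjusted p = 0.0151 by limma). Vcl, which encodes vinculin, fell by 0.79 (adjusted p = 0.00230 by limma). It was the one gene of the 22 called for the difference of the ATG effects, at 0.81 (adjusted p = 0.0272 by limma), where 0.546% of all genes were called. Of the marker lists, 3 of 30 endothelial, 5 of 18 mesangial and smooth muscle and 1 of 25 podocyte markers were called there in the same direction. Of 10 shear and nitric oxide regulators, Fli1 was the 1 called higher in diabetes (0.69, adjusted p = 0.0277 by limma), a share close to the 10.2% of all genes, and Klf4 (-0.96, adjusted p = 0.0452) and Ets1 (-0.71, adjusted p = 0.0380) were called lower with ATG in nondiabetic samples. The endothelial marker list also holds Cd34 and Emcn of the capture genes, both called higher in diabetes, Rasip1, Cldn5 and Ptprb of the junction genes and Erg of the regulators, so these counts are not independent of its own.

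In diabetic against nondiabetic samples under ATG, where 25.9% of all genes were called higher and 46.7% either way, 8 of the 13 counter-receptor genes, 12 of the 27 cytokine and NF-kB genes, 7 of the 16 capture genes, 13 of the 22 junction genes and 9 of the 10 regulators were called higher, and 2 NF-kB genes and 2 junction genes lower. The genes with the lowest p in each list were Itga9 (1.13) and Spn (1.09), Tnfrsf1a (0.64) and Tnfrsf1b (0.93), Mcam (1.57) and Cd34 (1.51), Vcl (1.02) and Rasip1 (1.20), and Ets1 (0.95) and Tal1 (0.96), at adjusted p-values by limma of 5.42e-05 (Vcl) to 0.00191 (Tal1).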

How the data were processed

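Per the labels, poly-A RNA of glomeruli was sequenced, and the authors deposited 1 table per sample with 1 row per gene and its log2 normalized value. The submitters' processing notes name the mm10 build and limma. The aligner is not given in the sources used here. The values correspond to reads multiplied by 1 factor per library, with 83.8 to 84.4% of values under 2000 reads whole within 0.02, and every listed gene reaches a linear value of 100 in some library, so that absent genes were not tested. Gene positions are those of the tables, 1-based.

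The log2 values of 12 samples were fitted in 1 model of 4 groups with limma 3.58.1 (R 4.3.3, prior variance with a trend), and 5 contrasts were tested with Benjamini-Hochberg adjustment over 14096 genes at 0.05. The script was tested on simulated data. Per-kilobase levels are the linear value divided by the transcript length in the tables. Groups came from the description labels. The labels name no batch. The first 3 digits of the sample titles differ between diabetic and nondiabetic groups, so whatever they stand for and diabetes cannot be told apart. Within each nondiabetic group 1 title begins with other digits, a split that crosses ATG treatment, and the fit without those 2 samples is given. The members and gene lists were chosen with earlier results of these data known. Genes outside the members are named by lowest p per list (up to 3 in diabetes, 2 in another contrast) or by highest Pearson r (2 per member), and Itga4 in the diabetes contrast was added after its value was seen. Alternatives were another scaling, a read minimum of 10, a pseudocount of 10, fewer groups, no trend, limma-voom on recovered reads, marker covariates, a replicate block and leaving out samples.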

Additional observations from a re-analysis of the deposited data

How the results depend on the processing

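The 5 diabetes calls, the 0 calls of ATG in diabetic samples, the 3 of ATG in nondiabetic samples and the 6 of diabetes under ATG were recomputed. Limma-voom on the recovered reads called 2684, 0, 653 and 6497 of all genes and 5, 0, 1 and 6 members. In diabetes the count moved to 1 with the replicate block, 0 with the tubule or leukocyte covariate, and 2 with the endothelial covariate or relative to the endothelial mean (the latter chosen after seeing the data), while the share of all genes called went from 18.9% to 9.75%, 2.60%, 1.74%, 6.45% and 11.1%. With ATG in nondiabetic samples it was 1 under median-ratio scaling and without a variance trend, 0 with only the groups compared, without the unnumbered nondiabetic samples, with each covariate and relative to endothelial markers, and 5 at an adjusted p under 0.1. The shares of all genes there were 3.82%, 4.27%, 0%, 0.0568%, 0.333% (tubule), 0% (endothelial), 1.54% (leukocyte), 74.8% and 15.2%, against 5.22%. Under ATG the 6 became 0 with the tubule or endothelial covariate and 1 (Vcam1, lower) relative to endothelial markers, where 0.809%, 0% and 88.6% of all genes were called, against 46.7%. A member count of 0 where almost no gene is called says nothing about the members. Leaving out 1 sample gave 1 to 6 calls in diabetes, 0 in diabetic ATG, 0 to 5 in nondiabetic ATG, 6 under ATG and 0 to 3 for the difference of ATG effects. The cause was not tested.

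Signs turned as follows. The endothelial-relative scale shifts all genes alike, to medians of 0.609 with ATG in nondiabetic samples, -0.989 in diabetes under ATG and -0.715 for the difference of ATG effects, so signs that turn on it say nothing about the members. Vcam1 in diabetes was -0.50 to 0.063 with 1 sample left out and, under ATG, -0.087 with the leukocyte covariate and -0.74 relative to endothelial markers. Esam with ATG in diabetic samples was 0.012 by median ratio, 0.0045 with the tubule and 0.015 with the leukocyte covariate, and -0.098 to 0.048 with 1 sample left out. With ATG in nondiabetic samples the endothelial covariate gave Icam1 0.011, Icam2 0.15, Pecam1 0.065 and Esam 0.065, and the endothelial-relative scale Icam1 0.23, Pecam1 0.0030 and Esam 0.14. Under ATG the covariate gave Icam2 -0.17 and Pecam1 -0.14, the relative scale Icam1 -0.17 and Pecam1 -0.042. For the difference of ATG effects the covariate gave Icam1 -0.36, Icam2 -0.39, Pecam1 -0.29, Cdh5 -0.12 and Esam -0.14, and the relative scale Icam1 -0.61, Icam2 -0.12, Vcam1 -0.15, Pecam1 -0.22, Cdh5 -0.14 and Esam -0.23, while with 1 sample left out Icam1 was -0.047 to 0.27 and Sele -0.43 to 0.14.

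Whether title numbers pair the samples is not settled. Over 13 same-numbered pairs of different groups the correlation of deviations ran from -0.59 to 0.34 and 5 exceeded 0.1. Between vehicle and ATG samples of the same disease state it was 0.31, 0.054 and 0.34 in diabetic and -0.047 and 0.25 in nondiabetic samples. Pairs with different numbers were not computed, so there is no baseline for these values. With the replicate block, which leaves out what the number explains, the calls were 1 in diabetes (Esam, adjusted p = 0.0473 by limma), 0, 4 and 5. The shares of all genes called there were 9.75%, 0%, 6.71% and 31.4%. Sele rests on 58 to 552 reads per sample, so its values carry more counting error than those of the other members.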
